A study of Mus musculus with 18 samples.

Results

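The 3 culture replicates of mIMCD-3 cells in the AGN193109 experiment differed from each other in 777 of 23410 transcript clusters (3.32%). The comparison used the 9 arrays of that experiment, of 18 arrays in the series, taken by the experiment, treatment and biological replicate number in their titles. mIMCD-3 is an established line of mouse inner medullary collecting duct cells. Each of biological replicates 1, 2 and 3 gave 3 arrays: cells treated with 1 µM AGN193109, cells treated with 1 µM AGN193109 and 0.2 µM all-trans retinoic acid (tRA), and cells treated with vehicle, which was 0.1% ethanol and 0.1% DMSO. Treatment lasted 24 h. AGN193109 blocks the retinoic acid receptors (RARs), and the study used it to find the genes that these receptors control in collecting duct cells. Here the treatments were the block, and the question was which genes separated the cultures. The labels name 3 independent biological experiments and give no passage, date, extraction or hybridisation batch for them, so that culture, passage, RNA preparation and array processing cannot be told apart.

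Cells of a line passaged at different times share a genome and a medium, but their transcriptomes can drift with density, serum, stress and signals that the cells release themselves. Interferon-stimulated genes are a well-known example of such a module. When interferon binds its receptors, a whole group of antiviral genes rises together, many of which carry a short promoter element, the interferon-stimulated response element. RNA was measured in bulk, so a smaller number of cells of one type and less RNA per cell cannot be told apart.

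The defining epithelial markers Cdh1 and Epcam were not called between the replicates. The mean log2 value of Cdh1, which encodes E-cadherin, was 12.27 in replicate 1, 12.26 in replicate 2 and 12.21 in replicate 3. Epcam, an epithelial adhesion molecule, had 11.31, 11.20 and 11.35 in replicates 1, 2 and 3. The principal cell water channel Aqp2 averaged 7.89 over the 9 arrays. Since the files used here hold no detection call, a low log2 value does not show whether a transcript was present. Of 27 markers of other kidney and blood cells, 2 were called (7.41%, against 3.32% of all clusters). The mean log2 value of the list was 6.74 to 6.81 in replicate 1, 6.71 to 6.82 in replicate 2 and 6.87 to 6.92 in replicate 3.

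A transcript cluster, the unit of this array, was called when limma's moderated F-test over the 3 replicates, with treatment as a block, gave a Benjamini-Hochberg adjusted p under 0.05. Of 23410 clusters with a gene symbol, 777 were called (3.32%), and 4848 had an unadjusted p under 0.05. For each called cluster the replicate that stood apart was the one farthest from the mean of the other 2. This was replicate 1 in 175 clusters (73 higher and 102 lower), replicate 2 in 311 (141 higher and 170 lower) and replicate 3 in 291 (156 higher and 135 lower). The replicate that stood apart was chosen from the same values, so its direction is a description. That direction was the same in all 3 treatments for 777 of the 777 called clusters, and in 658 of them its 3 raw values did not overlap the other 6. Both counts follow largely from the call, which selects clusters with a large replicate difference beside their residual. Neither was counted over all clusters. Of the called clusters, 662 carried 1 symbol, from 612 genes, and 115 carried several. The count includes 25 clusters whose 9 values were identical to those of another cluster, which leaves 752 distinct ones.

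Between pairs of replicates, replicate 1 differed from replicate 2 in 379 clusters (1.62%), 193 higher and 186 lower in replicate 1. Replicate 1 differed from replicate 3 in 249 clusters (1.06%), 105 higher and 144 lower in replicate 1. The widest pair was replicate 2 against replicate 3, with 614 clusters (2.62%), 304 higher and 310 lower in replicate 2. The differences were mostly small. Their median absolute size was 0.55, 0.61 and 0.57 on the log2 scale in the 3 pairs, and 33, 25 and 78 clusters passed 2-fold. The median standard error of a pair difference was 0.0849.

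Replicate carried more of the variation than treatment did. Over all tested clusters, replicate took 45.9% of the summed squares, treatment 20.6% and the residual 33.5%, with 2, 2 and 4 degrees of freedom. The replicate share was above the treatment share in 16513 clusters (70.5%). An F-test over the 3 treatments called 11 clusters (0.047%) without the replicate block and 66 (0.282%) with it. Of the 66, 30 were also among the 777, and of the 11 none were. Without the block, replicate differences enter the residual of the treatment test, so the missing overlap follows largely from the test. With the block, the treatment and replicate tests share a residual, so that overlap is a description too.

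**Figure D1:**
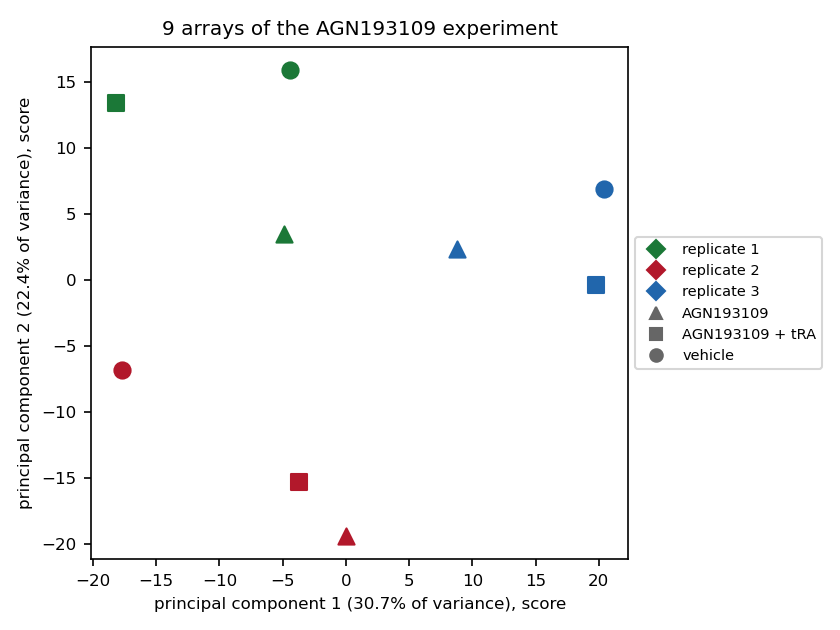
Scores of the 9 arrays on the first 2 principal components of the log2 values of 23410 clusters, coloured by biological replicate and shaped by treatment. Component 1 (30.7% of the variance) puts the 3 replicate 3 arrays on the right, between 8.8 and 20.4, and component 2 (22.4%) puts the 3 replicate 2 arrays lowest, between -19.4 and -6.86.

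The plot of array scores shows arrays of each replicate on their own side, with the AGN193109 arrays of replicates 1 and 3 nearest the middle. Arrays of the same replicate correlated at 0.9958 to 0.9983, arrays of the same treatment at 0.9939 to 0.9968 and arrays that shared neither at 0.9938 to 0.9969. Of the 9 arrays, 7 correlated best with an array of their own replicate. The exceptions were AGN193109+tRA of replicate 1, whose best match was vehicle of replicate 2, and AGN193109 of replicate 3, whose best match was AGN193109 of replicate 1. The AGN193109 array of replicate 3 also had the largest residual SD of the 9 arrays, 0.11 on the log2 scale. Without it 835 clusters were called, while the removal of each other array in turn left 183 to 403.

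Replicates also differed slightly by signal level. With the clusters cut into 5 equal bins of mean level, in the 2 dimmest bins the median difference of replicate 3 from the mean of replicates 1 and 2 was 0.09 and 0.09, and in the 2 brightest bins it was -0.02 and -0.02. Over all clusters that median was 0.04, against -0.02 for replicate 1 and -0.02 for replicate 2. The middle bin and the one above it held the highest share of calls, 5.77% and 5.7%, and the dimmest bin had 0.47%. After the arrays were quantile normalized again these medians were 0.0024 for replicate 3, 0.00125 for replicate 1 and -0.00366 for replicate 2.

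**Figure D2:**
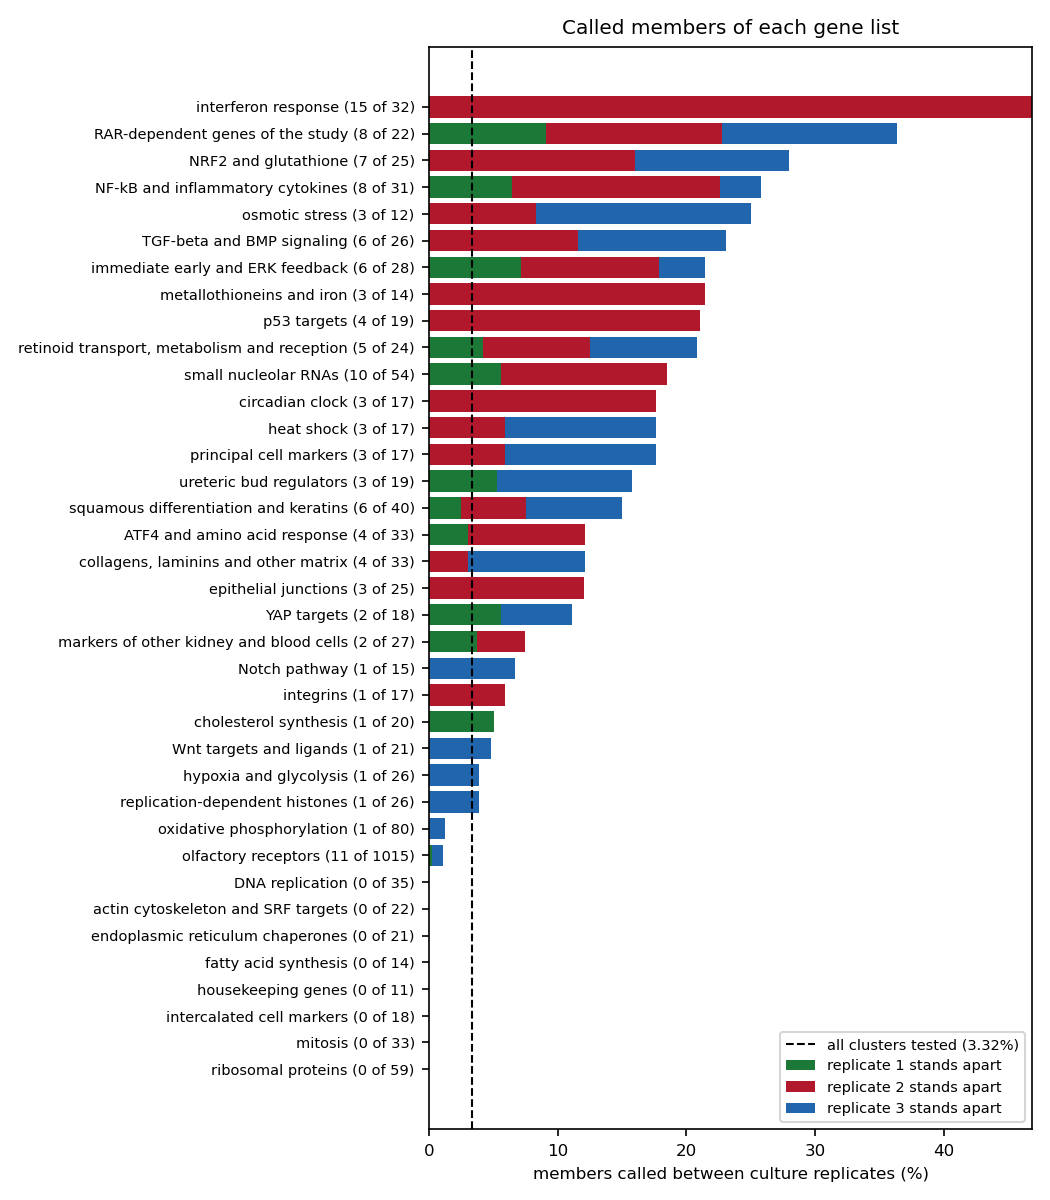
Share of the measured members of 37 gene lists that were called between the culture replicates, in percent, coloured by the replicate that stood apart, with the numbers called and measured beside each list. The dashed line marks the 3.32% called among all 23410 clusters, and the interferon list has the longest bar, all of it from replicate 2.

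Interferon-response genes were higher in replicate 2 (the plot of list shares). Of 32 measured members, 15 were called (46.9%, against 3.32% of all clusters), and in all 15 replicate 2 stood apart and was higher. Their raw values did not overlap those of the other cultures in any of the 15, nor did those of the replicate apart in 658 of all 777 called clusters. The median difference of replicate 2 over the 32 members was 0.42, against -0.02 over all clusters, and 29 of the 32 were positive. The mean log2 value of the list was 9.76 to 10.01 in the arrays of replicate 2, 9.41 to 9.48 in those of replicate 1 and 9.31 to 9.52 in those of replicate 3.

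The called members covered several steps of the response. Oas3, one of the enzymes that make 2′-5′ oligoadenylate and so activate RNase L, had log2 values of 9.90 with AGN193109, 9.79 with AGN193109+tRA and 10.0 with vehicle in replicate 2. The corresponding values were 9.22, 8.93 and 9.20 in replicate 1 and 9.12, 8.83 and 9.09 in replicate 3. All 3 arrays of replicate 2 thus lay above the other 6, by a mean of 0.83 ± 0.06 (SE), or 1.78-fold (limma F-test, adjusted p = 0.00342). Its relatives Oasl2 (0.82 ± 0.07, adjusted p = 0.00541), Oasl1 (0.70 ± 0.08, adjusted p = 0.00892) and Oas1a (0.64 ± 0.07, adjusted p = 0.0102) were higher in the same culture. Usp18, which removes ISG15 from proteins and damps receptor signaling, had 11.83, 11.74 and 12.01 in replicate 2, 11.27, 11.21 and 11.42 in replicate 1, and 11.25, 11.08 and 11.36 in replicate 3. Its difference was 0.59 ± 0.05 (adjusted p = 0.00591).

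Mx2 showed the largest difference of the list, 1.12 ± 0.17 or 2.17-fold (adjusted p = 0.0275). It encodes an antiviral GTPase. Its values were 6.87, 7.03 and 7.52 in replicate 2, 6.08, 6.27 and 6.30 in replicate 1, and 6.19, 5.31 and 5.98 in replicate 3. Cxcl10, a chemokine that draws T cells, was 0.87 ± 0.09 higher (adjusted p = 0.00842), with 12.66, 12.88 and 13.2 in replicate 2, 11.64, 12.21 and 11.99 in replicate 1, and 11.86, 12.13 and 12.44 in replicate 3. The transcription factor Irf7, which amplifies the response, was 0.62 ± 0.07 higher (adjusted p = 0.0100). Rsad2, Ifit1, Rtp4, Xaf1, Parp14, Tap1 and Bst2 followed with differences of 0.39 to 0.81. Not every member moved: Stat2, a signal transducer of the response, differed by 0.11 ± 0.06 (adjusted p = 0.470), and Ifit3 had its highest mean in replicate 3 (adjusted p = 0.188).

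**Figure D3:**
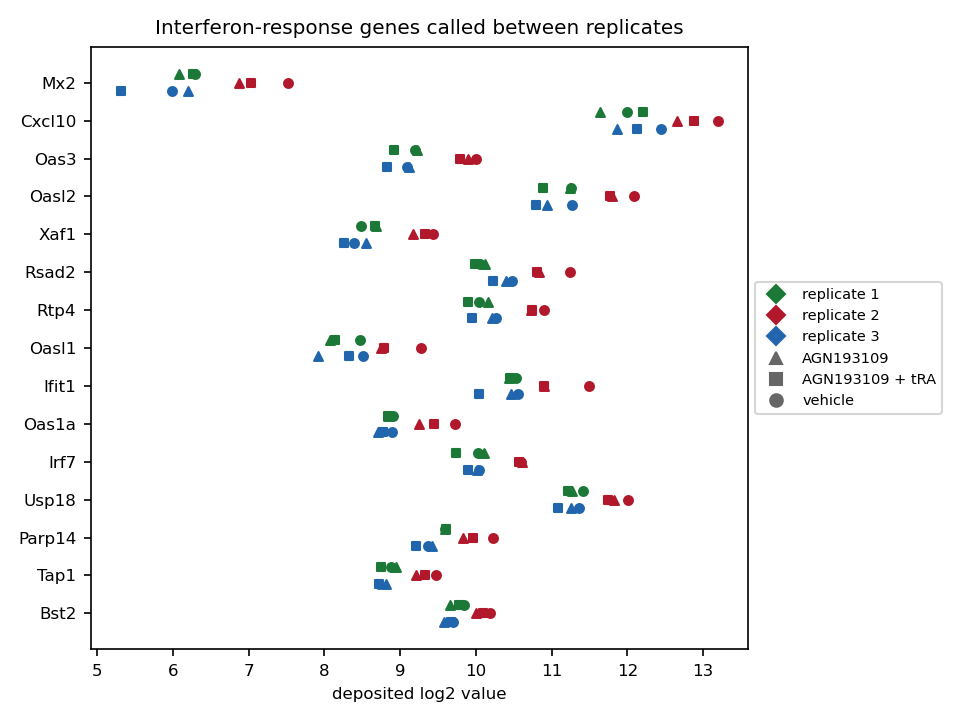
Deposited log2 values of the 15 called interferon-response genes in each of the 9 arrays, coloured by replicate and shaped by treatment. In every gene the 3 arrays of replicate 2 lie to the right of the other 6.

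The promoters of 3 of these genes are printed because each holds the letters of the response element, shown in capitals. The sequences are from RefSeq (GRCm38.p6) and run from 250 bases before to 50 after the annotated start, 5′ to 3′ on the gene's strand. Oas3 is at chr5:120777610-120777909 on the minus strand, Ifit1 at chr19:34640639-34640938 on the plus strand and Rsad2 at chr12:26456403-26456702 on the minus strand.
Oas3: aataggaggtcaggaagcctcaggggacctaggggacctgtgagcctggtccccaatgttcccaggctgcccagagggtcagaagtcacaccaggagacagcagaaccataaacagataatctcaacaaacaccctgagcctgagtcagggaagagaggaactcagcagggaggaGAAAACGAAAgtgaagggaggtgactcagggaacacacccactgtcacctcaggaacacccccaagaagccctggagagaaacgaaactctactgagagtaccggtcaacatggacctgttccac
Ifit1: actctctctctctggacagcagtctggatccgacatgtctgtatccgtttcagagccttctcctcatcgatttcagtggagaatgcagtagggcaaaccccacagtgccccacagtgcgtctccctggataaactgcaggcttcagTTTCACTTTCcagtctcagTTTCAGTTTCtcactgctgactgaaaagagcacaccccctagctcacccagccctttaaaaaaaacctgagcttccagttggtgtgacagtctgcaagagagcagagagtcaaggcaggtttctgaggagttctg
Rsad2: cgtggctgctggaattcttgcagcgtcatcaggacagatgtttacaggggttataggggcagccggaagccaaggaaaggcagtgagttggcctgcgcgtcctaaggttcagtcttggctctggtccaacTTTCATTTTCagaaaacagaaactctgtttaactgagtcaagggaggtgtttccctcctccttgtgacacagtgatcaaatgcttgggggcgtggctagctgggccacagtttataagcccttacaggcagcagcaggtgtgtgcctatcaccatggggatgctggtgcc
The motif searched was GAAANNGAAA on both strands. It was found in 6 of the 11 called members whose promoter was in the table and in 6 of the 12 uncalled members, against 3.99% of 27025 genes with a promoter of the same length. A match is a match of letters, and no site was measured.

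The interferon count depended on single arrays, as did the count over all clusters, which was 777 with every array. The interferon count was 7 without AGN193109+tRA of replicate 2, 8 without vehicle of replicate 3 and 9 without vehicle of replicate 2. The count over all clusters was 244, 183 and 270 in these settings, so the drop was not particular to this list. When any other array was left out, the interferon count was 10 to 19. In the separate DEAB experiment, 5 of the 32 members were called between the replicates (7.14% of all clusters were).

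NF-κB targets and inflammatory cytokines also differed between the cultures. Of 31 measured members 8 were called (25.8%, against 3.32% of all clusters), 5 of them with replicate 2 apart and higher. Ccl2, a monocyte chemokine, was the second most raised gene of that replicate, with 11.27, 11.40 and 11.48 in replicate 2, 9.95, 9.69 and 9.72 in replicate 1, and 9.73, 10.16 and 10.11 in replicate 3. Replicate 2 thus exceeded the other cultures by 1.49 ± 0.11, or 2.81-fold (adjusted p = 0.00342). Tnfaip3, which encodes the NF-κB inhibitor A20, was 0.69 ± 0.07 higher (adjusted p = 0.00805). The cytokine gene Lif was 0.55 ± 0.06 higher (adjusted p = 0.00861), and Csf1 and Ptgs2 were 0.47 and 0.42 higher. In Ccl20 and Cxcl2 replicate 1 stood apart and was lower, at -0.49 and -0.42, and in Tnfaip2 replicate 3 was higher, by 0.63. Without AGN193109+tRA of replicate 1 or AGN193109 of replicate 3, 6 and 8 members were called, and 3 to 5 without any 1 of the other arrays.

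Some stress genes were higher in the same culture. Hspa1a, the inducible Hsp70 chaperone, had 11.14, 10.93 and 10.95 in replicate 2, 9.87, 10.0 and 9.64 in replicate 1, and 10.07, 9.74 and 9.74 in replicate 3 (difference 1.16 ± 0.08, 2.24-fold, adjusted p = 0.00342). Of 17 heat shock genes 3 were called (17.6%, against 3.32% of all clusters). The other called ones, Hsph1 and Hspb8, had replicate 3 apart, at -0.53 and 0.42. The median of replicate 2 over the 17 was 0.10, against -0.02 over all clusters, and 14 were positive. Of 19 p53 targets 4 were called (21.1%), Mdm2, Aen, Plk2 and Psrc1, each 0.34 to 0.47 higher in replicate 2. With any 1 array left out, 0 or 1 of the p53 targets were called. Of 33 ATF4 and amino acid genes 4 were called (12.1%, against 3.32% of all clusters). In Atf3 replicate 1 stood apart, and the others, Cth (0.66 ± 0.07), the cystine carrier Slc7a11 (0.62 ± 0.08) and Shmt2 (0.39 ± 0.07), were higher in replicate 2. Of 28 immediate early and ERK feedback genes 6 were called (21.4%), with replicate 2 apart and higher in Fosl1, Dusp5 and Myc (0.69, 0.45 and 0.39), replicate 1 lower in Dusp1 and Nr4a1 (-0.39 and -0.46) and replicate 3 higher in Spry1 (0.29). With any 1 array left out, 1 to 3 of that list were called. Metallothionein Mt2 and the transferrin receptor Tfrc were 0.73 and 0.55 higher, whereas the iron exporter Slc40a1 was lower, at -0.87 ± 0.12 (adjusted p = 0.0192).

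The 6 most raised genes of replicate 2 were Lce1h, Ccl2, Rgs16, Snord58b, Hspa1a and Mx2. Lce1h, a late cornified envelope gene, had 10.15, 10.18 and 10.02 in replicate 2, 8.81, 8.65 and 8.86 in replicate 1, and 8.30, 8.23 and 8.31 in replicate 3. At 1.59 ± 0.07 (3.01-fold, adjusted p = 0.000447) it had the largest increase of any named gene. Rgs16, a GTPase activator that turns off G protein signals, was 1.38 ± 0.13 higher (adjusted p = 0.00625), and the small nucleolar RNA Snord58b 1.18 ± 0.21 higher (adjusted p = 0.0443).

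Replicate 2 stood apart and was lower in 170 clusters. Lbp, the lipopolysaccharide-binding protein, had the largest difference of all named genes, -1.89 ± 0.07 or 3.72-fold lower (adjusted p = 0.000354). Its values were 8.53, 8.98 and 9.53 in replicate 2, 10.34, 10.48 and 10.94 in replicate 1, and 10.91, 11.16 and 11.62 in replicate 3, so that the cultures were separated within every treatment. Txnip, a thioredoxin inhibitor that responds to glucose, had 10.40, 10.39 and 10.63 in replicate 2, against 12.22, 11.69 and 12.07 in replicate 1 and 11.96, 11.38 and 11.62 in replicate 3 (-1.35 ± 0.10, adjusted p = 0.00350). The potassium channel subunit Kcnj16 was at -1.26 ± 0.12 and the aldo-keto reductase Akr1c19 at -1.47 ± 0.12. Cldn8, a collecting duct tight junction claudin, was at -0.99 ± 0.13 (adjusted p = 0.0138), and kidney-specific cadherin Cdh16 at -0.60 ± 0.07. Cldn1, another claudin and the third called gene among 25 of epithelial junctions, was instead 0.47 ± 0.08 higher in replicate 2 (adjusted p = 0.0375). Of the 25, 12% were called, against 3.32% of all clusters. Lower in replicate 2 was also the mineralocorticoid receptor Nr3c2, at -0.67 ± 0.08. Csf1r, the macrophage growth factor receptor, had 7.61, 7.96 and 8.38 in replicate 2, 9.07, 9.03 and 9.50 in replicate 1, and 9.23, 9.02 and 9.32 in replicate 3 (-1.21 ± 0.11, adjusted p = 0.00559). The leukocyte marker Ptprc (adjusted p = 0.460) and the macrophage marker Adgre1 (adjusted p = 0.232) were not called, with means of 6.01 and 5.11 over the 9 arrays. The other called member of that list, the macrophage marker Cd68, had replicate 1 apart (-0.53 ± 0.08, adjusted p = 0.0206) and its highest mean in replicate 2.

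**Figure D4:**
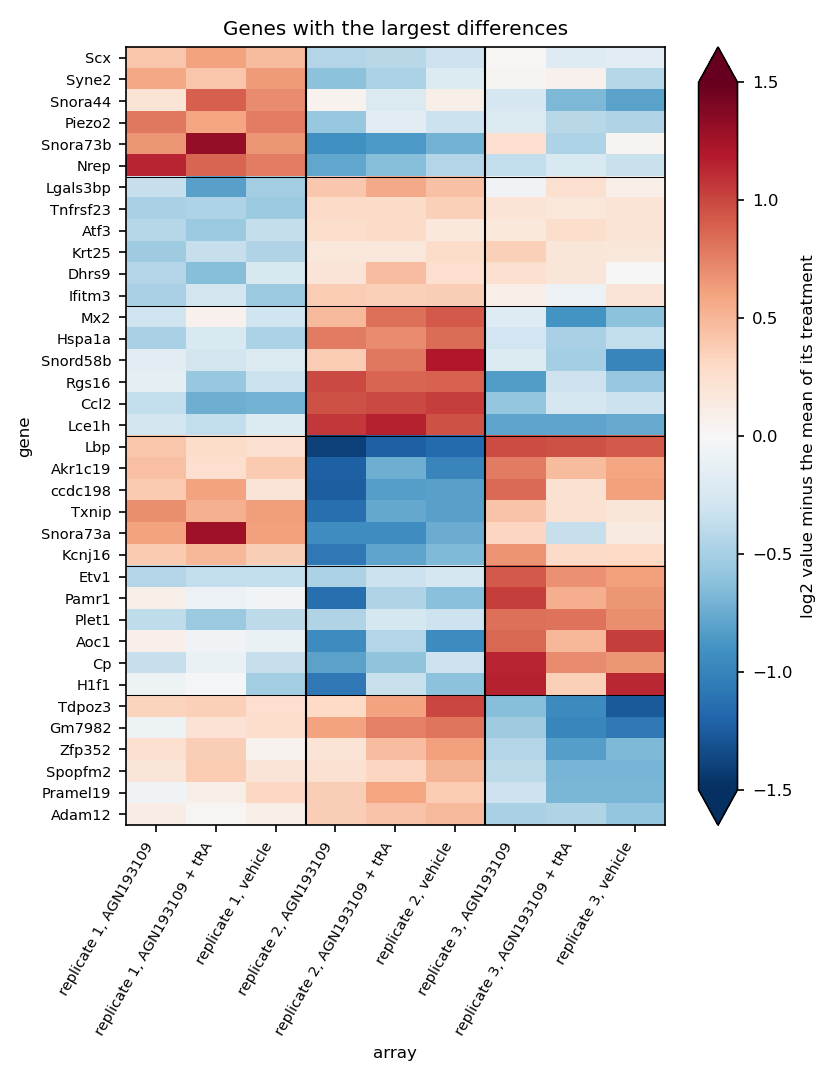
The 36 genes with the largest differences, 6 raised and 6 lowered for each replicate that stood apart, in the 9 arrays. Colour gives the log2 value minus the mean of the same treatment over the 3 replicates, and each block of 6 genes has 1 replicate of opposite colour to the other 2 in most arrays.

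Replicate 3 had its own set of raised genes. Slc14a2, the urea transporter of the inner medulla, had 7.96, 8.19 and 8.35 in replicate 3, 6.91, 7.14 and 7.22 in replicate 1, and 7.27, 7.29 and 7.29 in replicate 2 (0.98 ± 0.07, 1.98-fold, adjusted p = 0.00342). The betaine transporter Slc6a12, which takes up an osmolyte, was 0.76 ± 0.08 higher, and Avpr2, the vasopressin receptor of principal cells, 0.45 ± 0.06 higher (adjusted p = 0.0184). Of 12 osmotic stress genes 3 were called (25%, against 3.32% of all clusters), Slc14a2, Slc6a12 and Sgk1. In Sgk1 replicate 2 stood apart and was higher, by 0.32 ± 0.06. The median difference of replicate 3 over the 12 was 0.09, and 8 were positive. Principal cell markers as a list had 3 called of 17 (17.6%, against 3.32% of all clusters), Slc14a2, Avpr2 and Nr3c2, the last with replicate 2 apart and lower. The median difference of replicate 3 over the 17 was 0.10, against 0.04 over all clusters. Their median log2 level was 6.86, and in the level bins with medians of 6.48 and 7.88 the replicate 3 difference was 0.09 and 0.03. Intercalated cell markers, with none called, had 0.14. Also higher in replicate 3 were Plet1 (1.17 ± 0.08), the ETS factor Etv1 (1.11 ± 0.09), ceruloplasmin Cp (1.25 ± 0.15) and Nqo1 and Gsta3 of the NRF2 and glutathione list (0.72 and 0.86). In that list 7 of 25 were called (28%, against 3.32% of all clusters). Replicate 3 stood apart and was higher in Nqo1, Gclc and Gsta3, and replicate 2 stood apart in the others, lower in Gsta4, Gstm1 and Gstm2 and higher in Hmox1. With any 1 array left out, 0 to 4 of the list were called.

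Replicate 3 was lower in several gene families known from cleavage-stage embryos. Zfp352, Tdpoz3, Spopfm2, Gm7982 and Pramel19 were 5 of its 6 most lowered genes, and the other was the metalloprotease Adam12 (-0.75 ± 0.06, adjusted p = 0.00382). A list of these families, with Zscan4, Usp17l and other Tdpoz, Spopfm and Pramel genes, was made after the values were seen. Of its 54 clusters 36 were called, against 3.32% of all clusters, and replicate 3 was lowest in 35 of them. Members of the list had been picked as lowered in replicate 3 on these same values, so the counts are a description. The Pramel family mostly lay the other way: 11 of its 14 clusters had a higher value in replicate 3 than in the mean of the other cultures, and its 2 called genes were Pramel19, lower in replicate 3, and Pramel27, the exception among the 36, in which replicate 2 stood apart and was lower (-0.45 ± 0.07, adjusted p = 0.0398). The Zscan4 cluster, shared by 5 near-identical copies, had 9.47, 8.79 and 8.97 in replicate 3, 10.29, 10.3 and 10.26 in replicate 1, and 10.58, 10.76 and 10.77 in replicate 2 (-1.42 ± 0.13, 2.67-fold lower, adjusted p = 0.00591). Tdpoz3 had 6.47, 5.93 and 5.81 in replicate 3, 7.44, 7.25 and 7.32 in replicate 1, and 7.41, 7.49 and 8.08 in replicate 2 (-1.43 ± 0.18, adjusted p = 0.0137). In Zscan4 and Tdpoz3 the AGN193109 array of replicate 3 lay nearer to the other cultures than its 2 partners did. Such copies share probe sequence, so the clusters are not separate measurements, and which copy gave the signal is uncertain: Gm7982 alone accounts for 17 of the 36 called clusters. Without vehicle of replicate 3 the count was 14, without AGN193109+tRA of replicate 3 it was 20, and without any other array 28 to 34. When the clusters without a symbol entered the fit, the count was 0.

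Replicate 1 had the smallest set. Nrep, a regulator of neuronal regeneration, had 9.49, 9.59 and 9.66 in replicate 1, 7.57, 8.07 and 8.44 in replicate 2, and 7.98, 8.49 and 8.56 in replicate 3 (1.39 ± 0.11, 2.62-fold, adjusted p = 0.00357). The mechanosensitive channel Piezo2 was higher by 1.08 to 1.16 in 3 of 3 clusters, and the tendon transcription factor Scx by 0.75 ± 0.08. The chromatin remodeler Chd7 is read by 30 clusters here, of which 13 were called, 11 with replicate 1 apart and higher. Lower in replicate 1 were Lgals3bp, a secreted galectin-binding protein (-0.84 ± 0.12, adjusted p = 0.0164), Tnfrsf23, a decoy receptor for TRAIL (-0.75 ± 0.06, adjusted p = 0.00350), the stress factor Atf3 (-0.67 ± 0.07, adjusted p = 0.00805) and Ifitm3, an interferon-induced membrane protein (-0.66 ± 0.09, adjusted p = 0.0164).

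Small nucleolar RNAs, which guide the modification of ribosomal RNA, differed between cultures in both directions. Of 54 clusters 10 were called (18.5%, against 3.32% of all clusters). Snord14e had 9.98, 9.80 and 9.82 in replicate 2, 9.47, 9.22 and 9.19 in replicate 1, and 8.96, 8.78 and 8.71 in replicate 3 (0.81 ± 0.05, adjusted p = 0.00238). Snora73a and Snora73b, whose sequences are nearly identical, were both highest in replicate 1, at 10.8, 11.77 and 10.98 for Snora73a, and lowest in replicate 2, at 9.27, 9.57 and 9.62. The median of the 54 members was -0.30 in replicate 3, against 0.04 over all clusters, and their mean log2 value was 8.43 to 8.70 in replicate 3, 8.78 to 9.08 in replicate 1 and 8.73 to 9.03 in replicate 2. These RNAs are short, and the kit's recovery of short RNA was not tested. Without AGN193109 of replicate 3, 9 of the list were called, and 1 to 6 without any 1 of the other arrays. Of 305 microRNA clusters 2 were called, a share below the 3.32% of all clusters. The mature sequences of the genes of these 2, from RefSeq with the seed in capitals, are given to identify them.
mmu-miR-18a-5p: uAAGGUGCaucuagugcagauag
mmu-miR-181b-5p: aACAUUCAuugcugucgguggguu
Mir18 was 0.57 ± 0.10 higher in replicate 2 (adjusted p = 0.0442) and Mir181b-2 0.55 ± 0.08 higher in replicate 1 (adjusted p = 0.0228). The probes read the hairpin region, so the mature RNA was not measured.

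Retinoid genes took part in these differences. Stra6, the receptor for retinol-binding protein, had 9.05, 9.28 and 9.61 in replicate 3, 8.10, 8.19 and 8.60 in replicate 1, and 8.15, 8.22 and 8.53 in replicate 2 (1.01 ± 0.06, 2.02-fold, adjusted p = 0.00197). Aldh1a2, which makes retinoic acid, was at -0.52 ± 0.06 in replicate 2 (adjusted p = 0.00899), the retinol dehydrogenase Dhrs9 at -0.66 ± 0.11 in replicate 1, and Rdh10 at 0.41 ± 0.07 in replicate 3. Of 24 measured genes of retinoid transport, metabolism and reception, 5 were called (20.8%, against 3.32% of all clusters). The other called gene was Tgm2 (-0.62 ± 0.06 in replicate 2, adjusted p = 0.00625). Among 22 genes that the study named for their response to RAR inhibition, 8 were called between the replicates (36.4%). Most of the 22 were shortlisted on these same arrays, while Bmp7 and Foxa1 came from an earlier pilot PCR. In Tns1, which encodes the adhesion protein tensin 1, replicate 2 had 8.98, 9.69 and 10.61, against 10.21, 11.02 and 11.76 in replicate 1 and 9.79, 10.67 and 11.57 in replicate 3 (-1.08 ± 0.06, adjusted p = 0.00197). The culture difference of Tns1 held within each treatment although the raw values of the cultures overlapped across treatments. In Cpm, carboxypeptidase M, replicate 2 had 8.01, 9.81 and 10.56, against 9.01, 10.61 and 11.22 in replicate 1 and 9.34, 10.76 and 11.68 in replicate 3 (-0.98 ± 0.08, adjusted p = 0.00418). Without the treatment block 0 of the 22 were called between the replicates, and 546 of all clusters were. The 22 were named for a response to treatment, which enters the residual without the block, so that loss follows largely from the test. With 1 array left out, 4 of the 22 were called without vehicle of replicate 1 or AGN193109+tRA of replicate 2, 5 without AGN193109 of replicate 1, vehicle of replicate 2 or vehicle of replicate 3, and 7 or 8 otherwise.

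Several basic functions had no called gene. This was so for 59 ribosomal protein genes, 35 DNA replication genes, 33 mitosis genes, 21 endoplasmic reticulum chaperones, 22 actin and SRF genes, 18 intercalated cell markers, 14 fatty acid synthesis genes or 11 housekeeping genes. Of these 213 genes 45 had an unadjusted p under 0.05 in limma's F-test, a share similar to the 4848 of all 23410 clusters. Of all clusters 3.32% were called. A missing call does not show equal levels, since ribosomal proteins had a median of -0.15 in replicate 3 and 0.11 in replicate 2. In the fit over 18 arrays, 14 of the 59 were called, beside 3513 of all 23410 clusters. With the trend and robust options 5 of the 59 were called, beside 1218 of the 23410. Oxidative phosphorylation had 1 of 80 and olfactory receptors 11 of 1015 called (1.08%, below the 3.32% of all clusters).

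**Figure D5:**
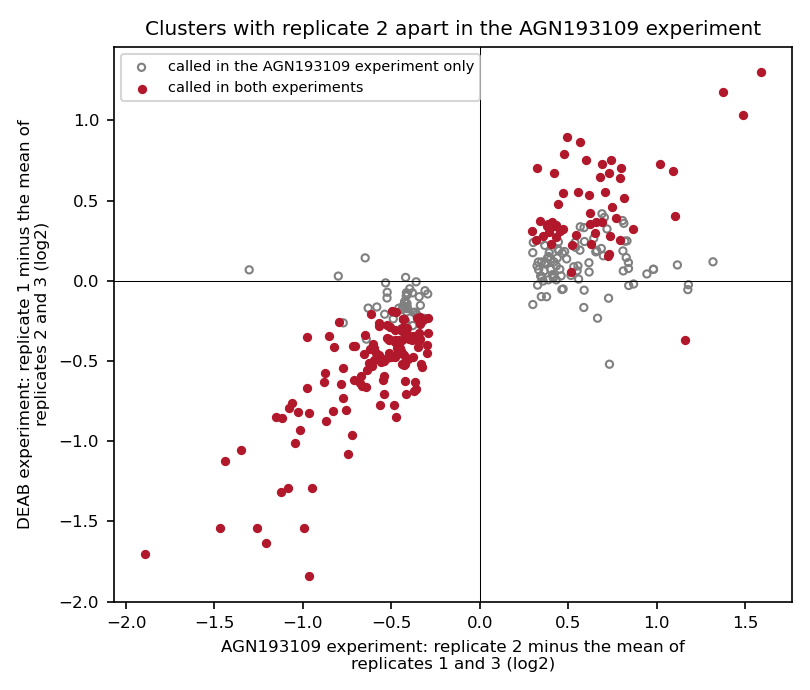
The 311 clusters in which replicate 2 stood apart in the AGN193109 experiment, with the log2 difference of replicate 2 there on the horizontal axis and that of replicate 1 of the DEAB experiment on the vertical axis. Filled points were called between replicates in both experiments, and most of those lower in replicate 2 of the AGN193109 experiment are also lower in replicate 1 of the DEAB experiment.

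Part of these clusters also varied in the DEAB experiment, which had its own vehicle arrays. DEAB inhibits the aldehyde dehydrogenases that make retinoic acid. The replicate F-test called 1672 clusters there (7.14%), and 354 were called in both experiments, 45.6% of the AGN193109 calls and 21.2% of the DEAB calls. Replicate 1 stood apart in most DEAB calls, 366 higher and 1117 lower, replicate 2 in 56 and replicate 3 in 133. Of the 170 clusters lower in replicate 2 of the AGN193109 experiment, 127 (74.7%) were called in the DEAB experiment, and in 123 of them replicate 1 stood apart and was lower. Of the 141 clusters higher in replicate 2, 55 were called there, 42 of them with replicate 1 higher. Lbp differed by -1.70, Kcnj16 by -1.54, Cldn8 by -1.54, Ccl2 by 1.04 and Lce1h by 1.30 between replicate 1 of the DEAB experiment and the mean of its other replicates. Hspa1a was lower there, at -0.37 (adjusted p = 0.0271). Of the 135 clusters lower in replicate 3 of the AGN193109 experiment, 69 were called in the DEAB experiment, 43 with replicate 1 higher, and the Zscan4 cluster was 0.88 higher in that replicate (adjusted p = 0.00127). Replicate numbers of the 2 experiments do not refer to the same cultures, and which DEAB replicate to set beside which was chosen after the values were seen.

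The number of calls moved with the arrays and clusters that entered the fit. When 1 array was left out the count of 777 became 183 to 835. When the 12146 clusters without a symbol were added, 45 clusters were called. The added clusters had a median residual SD of 0.207, against 0.106 for those with a symbol, and 37 of the 45 were among the 777.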

How the data were processed

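RNA of mIMCD-3 cells was hybridised to 18 Affymetrix Mouse Gene ST arrays, 9 of them in the AGN193109 experiment. The authors summarised the arrays with RMA in Affymetrix Expression Console and deposited log2 values. For this software a version was not given in the sources used here. Arrays were assigned by their titles. Some other label fields spell AGN193109 differently, and the titles were followed. The deposited values were used without further normalization. Of 35556 clusters, 23410 carried a symbol and were tested (21789 with 1 symbol, 1621 with several). An additive model of treatment and replicate was fitted in limma 3.58.1 (R 4.3.3), with Benjamini-Hochberg adjustment over all tested clusters and a threshold of 0.05. Differences are replicate 1, 2 or 3 minus the mean of the other 2, ± SE of the fit, with 3 arrays in each replicate. The fit was tested on simulated data.

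Named genes were, for each replicate, the 6 most raised and 6 most lowered 1-symbol genes, read from the cluster with the highest mean, and up to 3 called members of each of 37 lists with the smallest adjusted p. Further called members are given from the list counts. The gene lists and members were chosen with earlier results of these data known. Replicate numbers were used as pairs across treatments because same-numbered arrays were alike. Deviations from the treatment means correlated at 0.198 to 0.645 in all 9 same-numbered pairs, against -0.575 to 0.205 in 18 others. The 3 deviations of a treatment cancel out, so positive correlations in the first pairs push the others down. These are also the values tested for replicate, so the contrast is not independent support. Alternatives were another scaling, filters on dim clusters (lowest 30%), all clusters, all 18 arrays, trend and robust options, no block, and omission of arrays. Precision is limited by the number of arrays. Positions are GRCm38.p6. Plots were made in matplotlib 3.10.9 (Python 3.11.15).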

Additional observations from a re-analysis of the deposited data

How the results depend on the processing

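With all 35556 clusters, with or without a symbol, calls were 45 between culture replicates, 24 between replicates 1 and 2, 0 between 1 and 3, 193 between 2 and 3, 2 between the treatments and 604 in the DEAB experiment. A fit over all 18 arrays gave 3513, 1763, 1935 and 2291 for the first 4 of these and 31 for the treatments. With trend and robust options the counts were 1218 between culture replicates, 699 between replicates 1 and 2, 938 between 2 and 3 and 3281 in the DEAB experiment. Without dim clusters, 610, 385 and 2599 were called between replicates 1 and 2, between 1 and 3 and in the DEAB experiment. Without the treatment block, 178 were called between replicates 1 and 2. Without the vehicle arrays the counts were 2 between culture replicates, 0 between 1 and 2, 0 between 1 and 3, 2 between 2 and 3 and 0 in the DEAB experiment. Without the AGN193109 arrays they were 105, 14, 36 and 169, and without the AGN193109+tRA arrays 0, 0, 0 and 2, with 2974 clusters at an unadjusted p under 0.05 in limma for the first of these. In the DEAB experiment, 39 were called without the DEAB arrays and 171 without the DEAB+tRA arrays. With the replicate block, 66 clusters were called between the treatments, against 11 without it. Leaving out 1 array gave 183 to 835 between culture replicates, 17 to 588 between 1 and 2, 0 to 371 between 1 and 3, 148 to 570 between 2 and 3, 2 to 7 between the treatments and 447 to 1113 in the DEAB experiment. The cause of these changes was not tested.

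Of the 777 clusters, 708 were also called after quantile normalization again, 747 after subtraction of array medians, 713 without dim clusters and 460 without the treatment block. Of the 100 named genes, none changed direction under these alternatives. They were chosen among called clusters, whose direction was the same in every treatment, so this follows largely from the choice. Without the AGN193109+tRA arrays 100 of the 100 lost the call, and without the vehicle arrays 98 did. Of the 100, 35 were called whichever 1 of the 9 arrays was left out.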
